A study of Mus musculus with 3 samples.

Results

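TBX5 peaks were described at 8 protein-coding genes of mouse, Rad51b, Lrmda, Tns3, Skap1, Mipep, Nrde2, Ercc6l2 and Hsd17b3, none of which is known chiefly for a role in lung development. They were picked from this peak list because they host many peaks or a very strong one, so their counts and strengths are given as a description, without a test. A peak belonged to a gene if its summit lay inside the gene body or within 100 kb of its ends. The 8 genes, of 21631 protein-coding genes considered, held 227 of the 28381 peaks (0.800%). The list held nothing on expression, so whether these genes are active in lung was not tested.

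The series mapped where TBX5 sits on chromatin by ChIP-seq, the sequencing of DNA precipitated with an antibody, using E14.5 lungs of the CD-1 strain. It has 2 TBX5 ChIP libraries, given as biological replicates with 1 whole lung per replicate, and 1 input library. All 3 libraries are of CD-1 tissue, and the labels name no mutant or treated group. Every title names lung, yet heart is entered as the source of the second ChIP library and of the input library. One list stands for all libraries, so no value per library, no spread between replicates and no depth could be given, and any part of that label conflict in the results was not tested.

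TBX5 is a T-box transcription factor of heart, forelimb and lung mesenchyme. Factors of this kind often bind enhancers that lie far from the gene they control, and an enhancer can sit in an intron of an unrelated gene that serves as its host. For this reason a developmental regulator beside a host gene is of interest. Such neighbours were sought in a list of developmental gene families, to which Zfp36l1, Zfp503, Kat6b and Tnfrsf19 were added singly by a choice made with these peaks known. A peak list records position only, so which gene a peak acts on was not tested here. Rad51b encodes a protein of homologous recombination repair, and Ercc6l2 a helicase-like protein of the SNF2 family linked in humans to DNA repair and bone marrow failure. Lrmda encodes a leucine-rich protein of melanocyte differentiation, Tns3 the focal adhesion protein tensin 3, and Skap1 an adaptor of T cell receptor signalling. Mipep encodes a peptidase that matures mitochondrial precursors, Nrde2 a nuclear RNA-binding factor, and Hsd17b3 the testicular enzyme that makes testosterone.

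Among the 8 genes, a peak at the gene's own start was seen at Ercc6l2 and Tns3, and only that of Ercc6l2 reached into the promoter window (250 bases before to 50 after the start) that RefSeq's table of build GRCm38.p6 lists. The table held a start for 7 of the 8 genes. Promoters are shown for Ercc6l2, with a peak over 212 of its bases, and for Nrde2, with none, and for 3 developmental neighbours described further on. The Hoxb4 window shared 168 bases with a peak and the Zfp36l1 window 179. The Tnfrsf19 window shown shared none, its nearest summit lying 338 bases into the gene. Capitals mark GGTGT, the core that T-box proteins bind, and the longer AGGTGT that contains it, on either strand (ACACC and ACACCT). Any of the windows in the table, 32851 in all, held GGTGT in 41.6% of cases and AGGTGT in 13.7%.
Ercc6l2 (chr13:63814990-63815289, plus strand): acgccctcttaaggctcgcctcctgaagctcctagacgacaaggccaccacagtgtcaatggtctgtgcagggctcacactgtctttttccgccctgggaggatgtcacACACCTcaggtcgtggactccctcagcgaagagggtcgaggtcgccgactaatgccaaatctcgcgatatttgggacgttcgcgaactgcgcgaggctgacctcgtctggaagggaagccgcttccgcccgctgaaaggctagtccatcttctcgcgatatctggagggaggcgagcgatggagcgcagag
Nrde2 (chr12:100159600-100159899, minus strand): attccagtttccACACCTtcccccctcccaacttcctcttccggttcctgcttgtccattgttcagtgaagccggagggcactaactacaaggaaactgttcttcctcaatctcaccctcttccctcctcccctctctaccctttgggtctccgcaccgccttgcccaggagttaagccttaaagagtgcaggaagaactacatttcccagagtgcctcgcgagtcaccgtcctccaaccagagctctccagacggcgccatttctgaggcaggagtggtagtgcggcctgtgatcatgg
Hoxb4 (chr11:96318017-96318316, plus strand): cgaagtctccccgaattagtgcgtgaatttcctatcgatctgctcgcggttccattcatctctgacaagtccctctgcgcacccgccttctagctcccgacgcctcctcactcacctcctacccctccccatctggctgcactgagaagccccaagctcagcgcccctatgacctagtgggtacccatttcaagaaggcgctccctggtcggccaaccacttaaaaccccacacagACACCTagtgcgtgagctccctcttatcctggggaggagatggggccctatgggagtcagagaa
Zfp36l1 (chr12:80112964-80113263, minus strand): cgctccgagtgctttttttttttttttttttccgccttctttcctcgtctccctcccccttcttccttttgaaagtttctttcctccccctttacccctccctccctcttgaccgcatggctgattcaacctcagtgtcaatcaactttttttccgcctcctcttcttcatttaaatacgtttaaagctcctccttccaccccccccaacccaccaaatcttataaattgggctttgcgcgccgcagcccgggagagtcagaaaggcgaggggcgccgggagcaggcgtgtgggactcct
Tnfrsf19 (chr14:61046806-61047105, minus strand): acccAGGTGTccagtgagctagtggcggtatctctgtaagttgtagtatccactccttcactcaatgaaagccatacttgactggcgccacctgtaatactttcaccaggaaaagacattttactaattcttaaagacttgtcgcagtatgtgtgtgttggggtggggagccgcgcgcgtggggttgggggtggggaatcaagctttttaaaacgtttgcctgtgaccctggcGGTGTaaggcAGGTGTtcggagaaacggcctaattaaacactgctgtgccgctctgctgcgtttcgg
Each sequence runs 5′ to 3′ in the direction of its gene. The Ercc6l2, Nrde2 and Hoxb4 windows each held 1 copy of AGGTGT, read as ACACCT. Only the copy of Ercc6l2 lay under a peak. That of Hoxb4 was in the part of the window past its peak, and the Nrde2 window had no peak. Zfp36l1 had a peak over its window and 0 copies of the core. The Tnfrsf19 window shown, with no peak, held 3 copies of the core, 2 of them as AGGTGT. A further window is listed for Tnfrsf19, at another start. It held 1 copy of the core and 0 of AGGTGT, and no summit lay within 1 kb of that start. A match is a string of letters and not a bound site.

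The host genes differed in how their peaks were made up. Lrmda had 80 peaks and Rad51b 53, the highest and the third highest counts of all 21631 genes, with Bcas3 between them (65 peaks) and Rbms3 (51) and Hoxb2 (48) next. Ercc6l2 had 24 peaks, Tns3 and Skap1 23 each, Hsd17b3 16, Mipep 8 and Nrde2 7, where the median gene had 3. Tgfbr3 and Slit3 were level with Tns3 and Skap1 at 23. Mipep and Nrde2 are not peak-rich: 12.0% of all genes had as many peaks as Mipep and 16.2% as many as Nrde2, and each stood in the group for 1 very strong peak.

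Since long genes collect more peaks, counts were also taken per 100 kb of body and flanks. On this scale Ercc6l2 led the 8 genes with 8.30 peaks, followed by Rad51b (7.06), Hsd17b3 (6.93), Lrmda (6.47), Tns3 (5.31) and Skap1 (4.65). Those 6 lay above the 95th percentile of all genes, 4.13 peaks per 100 kb, while Nrde2 (2.98) and Mipep (2.49) lay between it and the median of 0.982. Ercc6l2 then ranked 54 of all genes, Rad51b 109 and Lrmda 164, so Lrmda's first place in count goes with its length of 1037 kb.

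**Figure D1:**
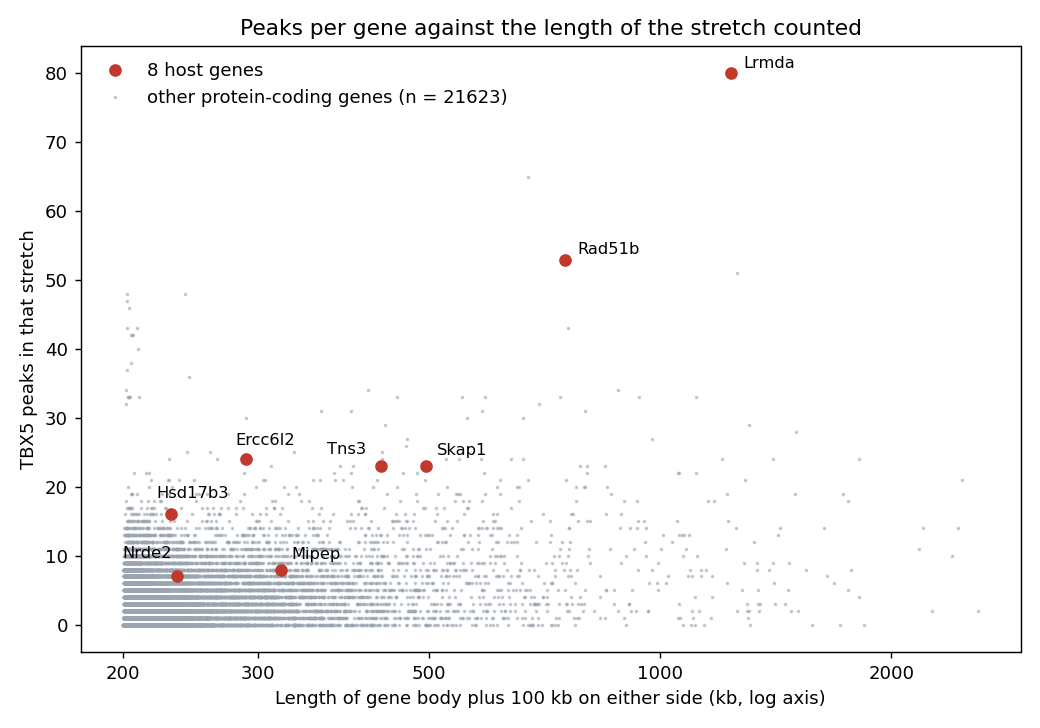
Number of TBX5 peaks (vertical axis) against the length in kb of gene body plus 100 kb on either side (horizontal log axis), 1 point per protein-coding gene; red, the 8 host genes, grey, all others. Lrmda (80 peaks) and Rad51b (53) stand high at long lengths, while Mipep (8) and Nrde2 (7) lie within the mass of other genes.

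The peak caller's fold enrichment, the ratio of signal at the summit to local background, and its −log10 q are the authors' values and serve only to order the peaks. Strong peaks are the top 5000 by −log10 q. Of the 227 peaks, 69 were strong (30.4%), against a background of 17.6% over the whole list. Nothing is read from this excess, since strength helped choose the genes. Each of the 8 genes had a strong peak, as did 29.7% of all protein-coding genes. The median fold was 7.54 in the host genes and 6.27 in the list. Of the 10 highest peaks of the list 3 lay in them, inside Nrde2, Skap1 and Mipep, and of the 100 highest 9 did, of which 5 were in Lrmda and 2 in Skap1.

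Distance to a gene start was not itself a ground for choosing the genes, but counting peaks over body and flanks favours long genes, whose stretches hold few starts. The following shares therefore describe where the peaks lie and do not set the host genes apart. The peaks lay mostly inside genes and rarely at starts: 152 of 227 (67.0%, exact 95% binomial interval 60.4 to 73.0%) were inside a protein-coding gene, where the whole list had 52.2%. Only 9 of the 227 (3.96%, interval 1.83 to 7.39%) lay within 1 kb of a listed protein-coding start, against 15.8% over the list. They lay at the starts of Ercc6l2, Tns3, Zfp503, Psmc1, Cbx1, Nfe2l1, Copz2 and, with 2 peaks, Zfp367, and had 3.91 to 9.41-fold. None of the 69 strong peaks did, which allows a share of up to 5.21%, against 6.67% of strong peaks elsewhere in the genome. Counting either end of any protein-coding gene, 1 of the 69 strong peaks (1.45%, interval 0.0367 to 7.81%) was within 1 kb, against 8.27% elsewhere. The intervals cover counting error only, neighbouring peaks are not independent, and no test was made.

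**Figure D2:**
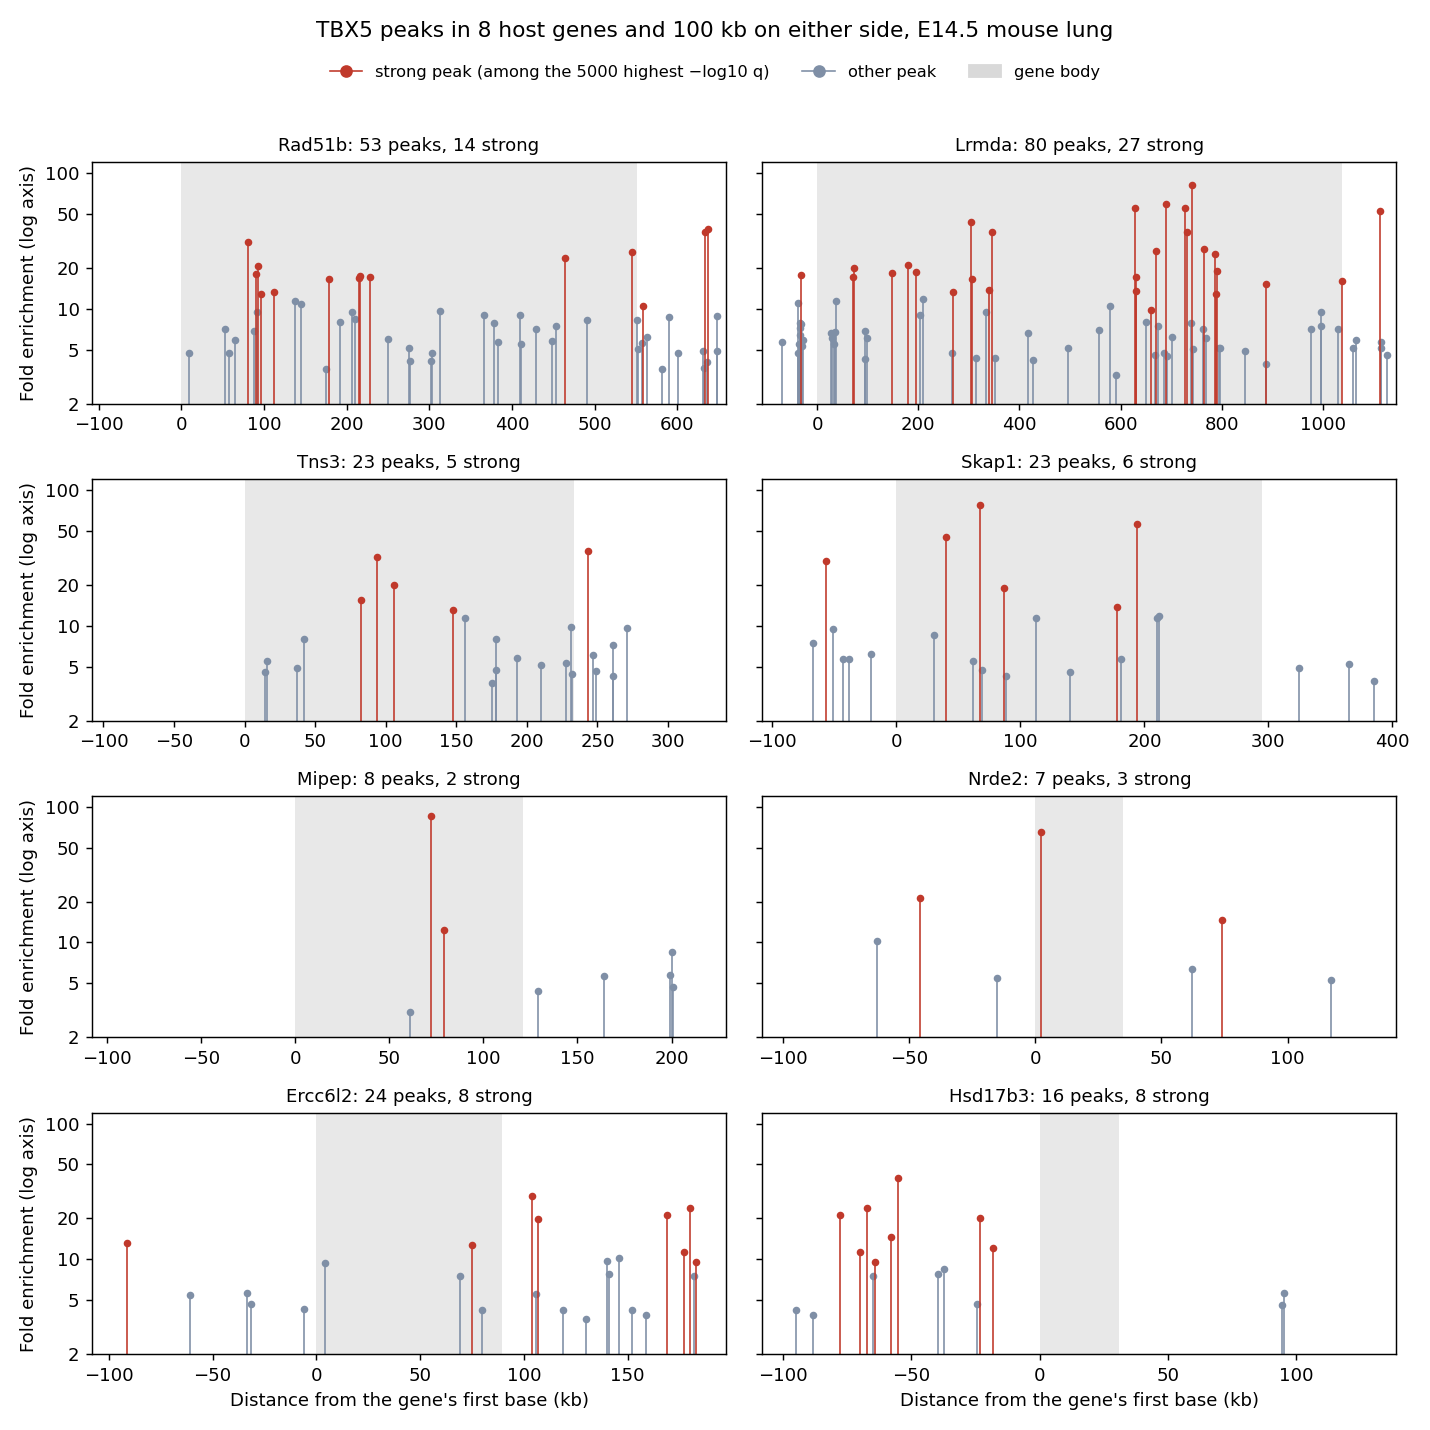
Fold enrichment (vertical log axis) of every TBX5 peak against distance in kb from the first base of each host gene, in 8 panels; grey shading is the gene body, red marks strong peaks. Lrmda and Rad51b carry peaks along their whole bodies, Mipep and Nrde2 have 1 peak far above the rest, and Hsd17b3 has none inside.

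Lrmda (gene 76633, chr14:22019504-23056093) was the richest host. It had 62 peaks inside, 11 in the flank below its first base and 7 above its last base, where below and above mean lower and higher coordinates. Of the 80, 27 were strong, 24 of them inside. They were not spread evenly: with the body cut into 4 equal parts, the parts held 15, 12, 23 and 12 peaks and 5, 5, 10 and 4 strong ones, starting from the promoter end. The third part also held the highest peaks.

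The strongest Lrmda peak (chr14:22759603-22761108, 81.4-fold, −log10 q 303) lay 741 kb into the gene and ranked 16 in the list. Close by were peaks of 54.8-fold (22745799 to 22746732) and 36.9-fold (22751115 to 22751992). All 3 fell inside Gm30926, an lncRNA gene nested in Lrmda. Further strong peaks were 58.7-fold (22707998 to 22708949) and 55.1-fold (22647914 to 22648657). A 43.3-fold peak lay 304 kb into the gene (22323022 to 22324021), and a 52.2-fold peak 75.8 kb beyond its last base (23131368 to 23132586). The Lrmda start itself had 0 peaks within 1 kb.

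The nearest developmental neighbour of Lrmda was Zfp503, which encodes a zinc finger transcriptional repressor and ends 29.9 kb below Lrmda. The short body of Zfp503 (5.64 kb) held 5 peaks, up to 17.6-fold (21987261 to 21988243), and a 5.34-fold peak lay 693 bases from its start. The largest group of Lrmda's peaks, 10 summits within 9.59 kb and each at most 10 kb from the next, was at Zfp503. Just outside the 100 kb limit, 116 kb below Lrmda and on the far side of Zfp503, stood a peak of 84.9-fold (21903472 to 21905072, rank 6), higher than any inside the host. Of the 80 peaks, 59 had the Lrmda start as their nearest listed start, 11 that of Zfp503 and 10 that of Kcnma1, a potassium channel gene above Lrmda. Kat6b, a histone acetyltransferase gene 347 kb below with 7 protein-coding genes between, had 7 peaks, 3 of them strong.

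Rad51b (gene 19363, chr12:79297282-79848260) had 38 peaks inside and 15 above its last base, but 0 in the 100 kb below its first base. The difference between its sides reached further: 3 peaks, none strong, lay within 500 kb below and 40, of which 12 were strong, within 500 kb above. On the side below, Zfyve26, which encodes a zinc finger protein of endosomes, ends 0.959 kb from Rad51b, and the highest peak within 500 kb was 5.58-fold. The first 100 kb of the Rad51b body then held 10 peaks, 4 of them strong. No summit lay within 1 kb of either of the 2 starts listed for Rad51b.

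The strongest peaks of the Rad51b stretch lay outside the gene and on the side of Zfp36l1. This neighbour encodes a CCCH zinc finger protein that binds AU-rich elements and promotes mRNA decay, and it is the next protein-coding gene, 260 kb above. Peaks of 36.9-fold (79931363 to 79932121) and 38.4-fold (79934065 to 79934554) stood 83.5 and 86.1 kb above Rad51b, within the lncRNA genes Gm51985 and 9430078K24Rik. The highest peak between Rad51b and Zfp36l1 was of 39.2-fold at 127 kb (79974410 to 79975897), beyond the limit used. The Rad51b body held 6.90 peaks per 100 kb, against 10.4 in the interval up to Zfp36l1, which had 27 peaks, 7 of them strong. Zfp36l1 itself had a strong 18.4-fold peak (80113085 to 80113730) 454 bases before its start, whose window is printed above. Peaks did not end at Zfp36l1. Past it, the 100 kb that begin 900 kb from the first base of Rad51b held 5 peaks, 3 of them strong, up to 31.3-fold. Of the 53 peaks, 30 had a Rad51b start as their nearest and 23 that of Zfp36l1, including both lncRNA peaks.

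Inside Rad51b, strong peaks were most numerous toward the start. Of 4 equal parts from the start, the first had 12 peaks with 5 strong, the second 10 with 4 strong, the third 10 with 0 strong, and the last 6 with 2 strong. The highest inside were a 31.1-fold peak 80.3 kb into the gene (79377258 to 79378085) and a 26.4-fold peak near the last base (79842066 to 79842712). The 31.1-fold peak opens the largest group of the stretch, 6 summits within 16.4 kb.

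Tns3 (gene 319939, chr11:8431652-8664758), which is read from the minus strand, had 17 peaks inside and 6 in the flank before its start, but 0 in the 100 kb past its other end. Its strongest peak (8674575 to 8675167, 35.3-fold) lay 10.3 kb before the start. Within the body the highest were of 32.2-fold (8525404 to 8525934) and 19.9-fold (8536882 to 8537525), 139 and 127 kb into the gene. A weak peak of 4.41-fold lay 503 bases into the gene from the start. For all 23 peaks the Tns3 start was the nearest listed start of a protein-coding gene.

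No gene of the developmental list lay within 1 Mb of Tns3. Igfbp3, which encodes a binding protein of insulin-like growth factors and was the nearest, ended 1216 kb below and had 1 peak in its own stretch. On the other side the next protein-coding gene was Pkd1l1, 161 kb away, a polycystin family gene. The interval between held 12 peaks, among them one of 79.0-fold (8813959 to 8814979, rank 12), 150 kb from Tns3 and outside the limit used. Within 500 kb, 16 peaks lay on the Pkd1l1 side and 2 on the Igfbp3 side.

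**Figure D3:**
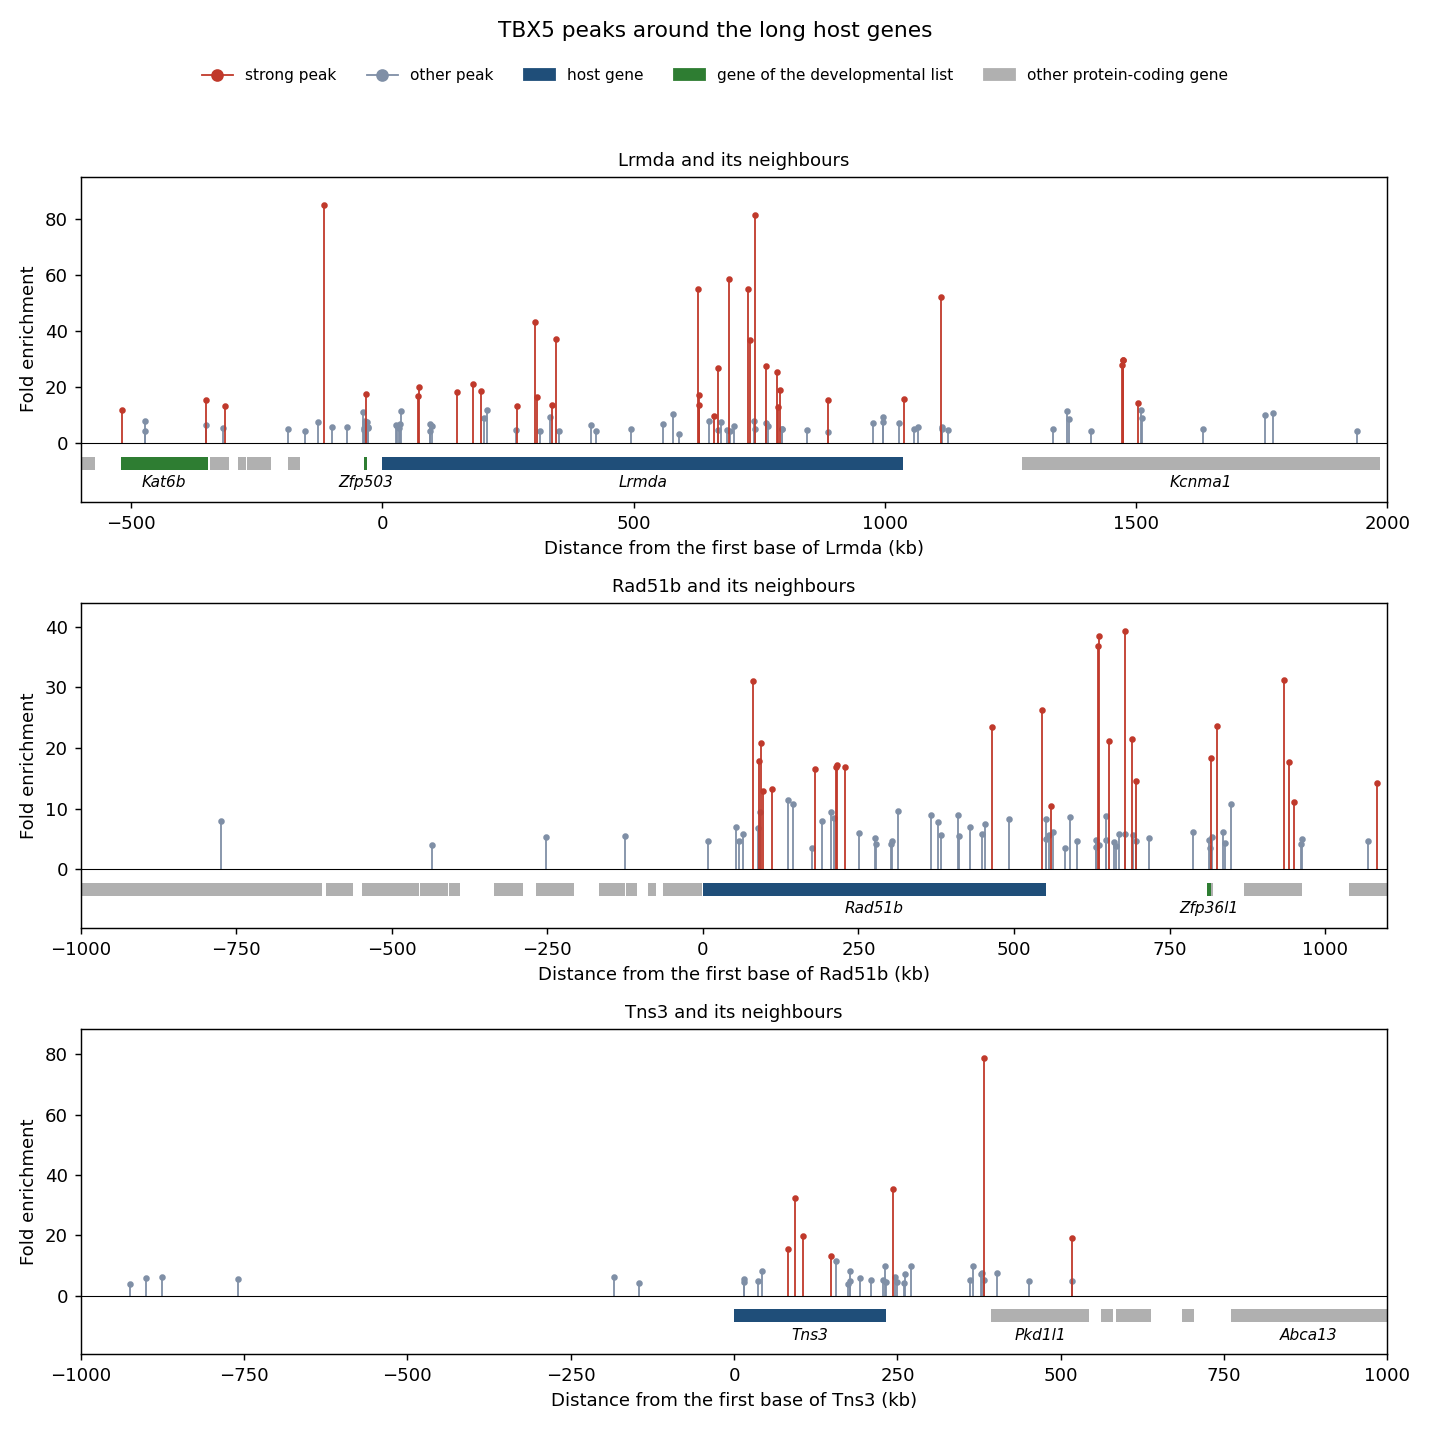
Fold enrichment of TBX5 peaks against distance in kb from the first base of Lrmda, Rad51b and Tns3; bars below the axis are protein-coding genes, with the host gene in blue and genes of the developmental list in green. Peaks run from Zfp503 through Lrmda, and from Rad51b on to Zfp36l1 and past it, while the side of Rad51b away from Zfp36l1 holds 3 peaks within 500 kb.

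Skap1 (gene 78473, chr11:96464570-96759622) lies beside the Hoxb cluster, whose homeodomain factors pattern the body axis. Hoxb1 ends 96.3 kb below Skap1. The gene had 14 peaks inside, 6 below and 3 above. The strongest (96531648 to 96532803, 77.2-fold, −log10 q 324) ranked 8 in the whole list and lay 164 kb from Hoxb1. Others inside were of 55.6-fold (96658186 to 96659025) and 44.9-fold (96504573 to 96505095). The 77.2-fold and the 44.9-fold peaks fell in the lncRNA gene Gm38960. Between Hoxb1 and Skap1 stood 6 peaks, 1 of them strong, of 30.0-fold (96407305 to 96408059).

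The peaks of Skap1 were fewer and higher than those of the Hoxb genes. Nothing is read from the difference in height, since strength helped choose the host genes. Inside Skap1 there were 4.74 peaks per 100 kb, against 42.3 per 100 kb from Hoxb9 to Hoxb1, a stretch of 96.9 kb with 41 peaks, 10 of them strong. The median fold was 11.3 inside Skap1 and 6.67 over the Hoxb stretch, and the peak with the highest −log10 q had 77.2-fold in Skap1 and 27.1-fold in the Hoxb stretch. Hoxb4 had a weak peak of 4.40-fold 126 bases before its start. On the other side of Skap1 the flank held 3 peaks, each at the start of another gene (Cbx1, Nfe2l1 and Copz2), at 3.91 to 5.24-fold. Tbx21, a T-box gene of T helper cells 338 kb above, had 0 peaks at its start.

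Ercc6l2 (gene 76251, chr13:63810979-63900302) and Hsd17b3 (gene 15487, chr13:64058274-64089262) are neighbours 158 kb apart, and 7 peaks, 4 of them strong, were counted for both. The bodies held few: 4 peaks, 1 of them strong, in Ercc6l2 and 0 in Hsd17b3. The interval between the genes held 22 peaks, 10 of them strong, or 13.9 per 100 kb. Its highest peak was of 39.6-fold (64002997 to 64003547), which lay 55.0 kb from Hsd17b3 and 103 kb from Ercc6l2, so it was counted for Hsd17b3 alone. Peaks of 29.3-fold (63915050 to 63915518) and 23.8-fold (63990530 to 63991040) came next.

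The peaks stop at Hsd17b3. Within 500 kb it had 45 peaks below, 20 of them strong, and 4 above, none strong and at most 5.64-fold. Of its 16 peaks, 14 lay past the far end of the gene from its start, since it is read from the minus strand, and the other 2 at the start of Zfp367. The Ercc6l2 start had a peak of 9.41-fold (63815078 to 63815683), with its summit 67 bases into the gene, over the promoter printed above.

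The developmental neighbour of both genes was Ptch1, which encodes the hedgehog receptor that is itself induced by hedgehog signalling, 238 kb below Ercc6l2 and 485 kb below Hsd17b3. Ptch1 had 19 peaks inside, 7 of them strong, or 29.2 per 100 kb. The highest peaks were of 29.3-fold at Ercc6l2 and 39.6-fold at Hsd17b3, against 19.2-fold in Ptch1, with or without its flanks of 100 kb. Higher than all of these was a peak of 67.4-fold on the far side of Ptch1, within 1 Mb of Ercc6l2. Nothing is read from the difference in height between the hosts and Ptch1, since strength helped choose the host genes. Between Ptch1 and Ercc6l2 lay 11 peaks, 4 of them strong, with no protein-coding gene in between, and the highest of them, of 13.1-fold (63719461 to 63720075), was in the lncRNA gene 1700024I08Rik. A 17.2-fold peak (63566173 to 63567032) lay 695 bases before the listed Ptch1 start. The strongest peak of Ercc6l2 was 342 kb and that of Hsd17b3 430 kb from the Ptch1 body.

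**Figure D4:**
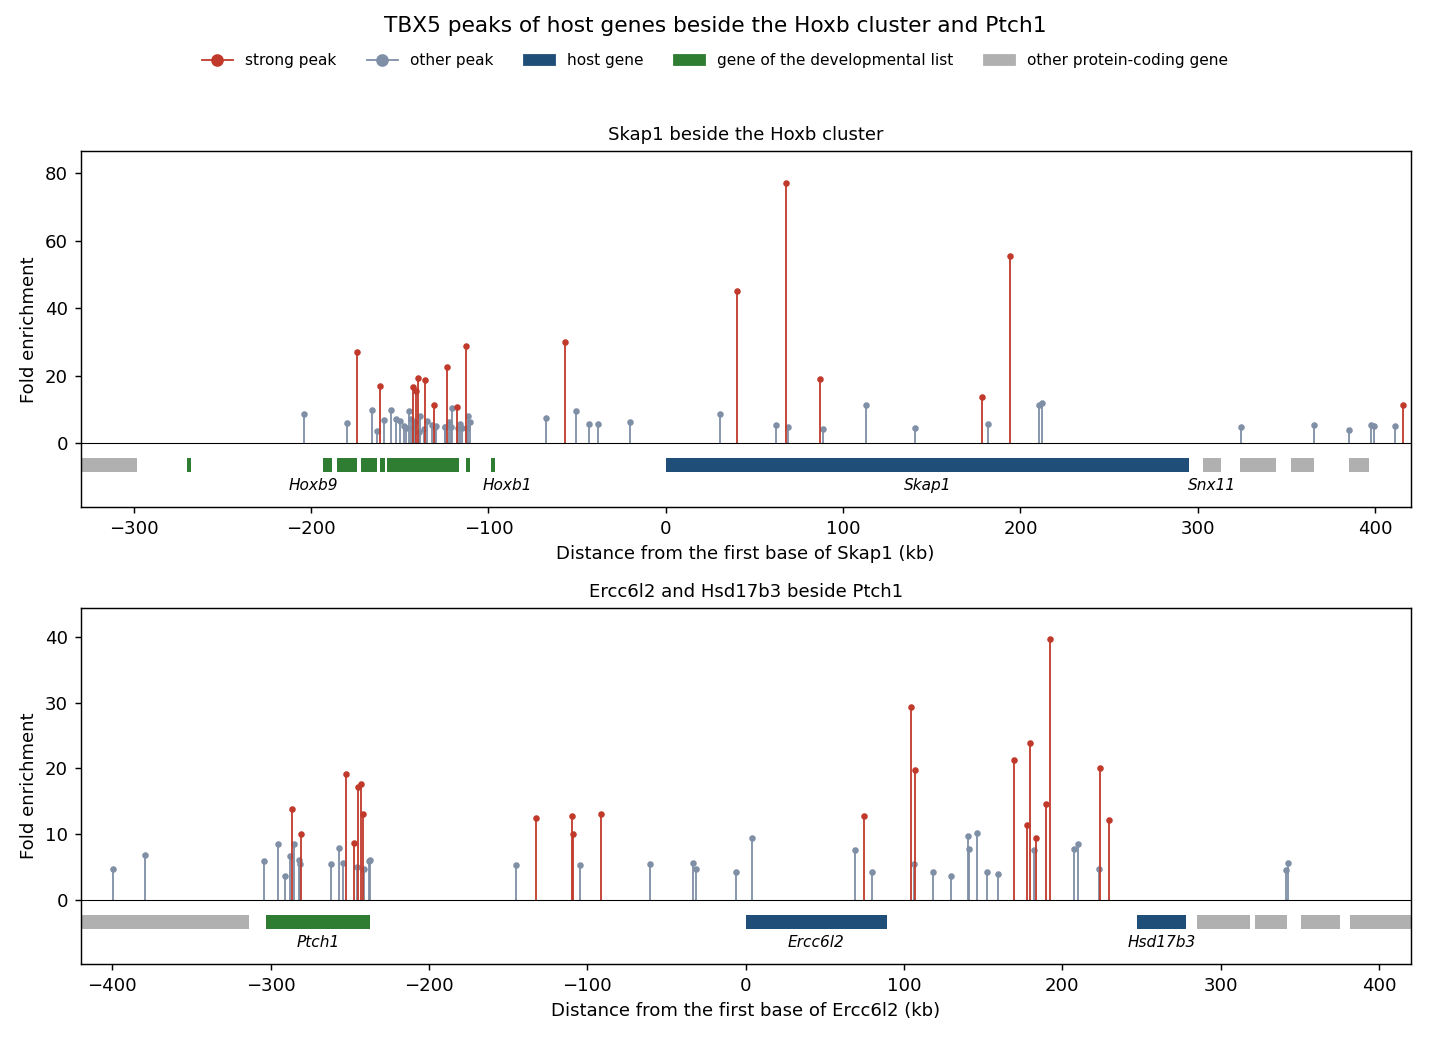
Fold enrichment of TBX5 peaks against distance in kb from the first base of Skap1 and of Ercc6l2, with protein-coding genes as bars (host genes blue, developmental list green). Skap1 carries few peaks of up to 77.2-fold and the Hoxb genes many of up to 28.9-fold. Ptch1 holds 7 strong peaks in its body of 65.1 kb, and the 158 kb between Ercc6l2 and Hsd17b3 hold 10.

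Mipep (gene 70478, chr14:60784562-60905481) had 3 peaks inside, 5 above and 0 in the 100 kb below. A single peak stood out (60856229 to 60857284, 86.2-fold, −log10 q 321, rank 9 in the list), 72.2 kb into the gene. The next, of 12.3-fold and also strong, lay 78.9 kb into the gene (60863246 to 60863764). The remaining 6 were not strong and ran from 3.07 to 8.48-fold.

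The developmental neighbour of Mipep was Tnfrsf19, which encodes a member of the TNF receptor family, 58.4 kb above with no protein-coding gene between. The 86.2-fold summit was 107 kb from the body of Tnfrsf19 and 181 kb from the nearer of its listed starts. Of the 8 peaks, 5 had Tnfrsf19 as the gene with the nearest listed start. Tnfrsf19 had 6 peaks inside, none strong. The highest were of 8.48-fold (60984315 to 60984553), which is also counted for Mipep, and of 8.45-fold (61046331 to 61046684). The latter lay 338 bases from the Tnfrsf19 start whose window is printed above. Spryd7, 626 kb away, matched a stem of the list by its letters alone and is no Sprouty gene.

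Nrde2 (gene 217827, chr12:100125450-100160414) had 1 peak inside, 3 below and 3 above. That peak (100127447 to 100128510, 65.3-fold, −log10 q 352) ranked 3 in the list and lay 2.31 kb from the end of the gene opposite its start. A further strong peak was of 21.2-fold, 45.6 kb below in the pseudogene 9530050K03Rik (100079560 to 100080036). A peak of 5.46-fold lay at the start of Psmc1, a proteasome subunit gene 2.09 kb below. No summits of Nrde2 were within 10 kb of each other.

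Developmental genes were far from Nrde2. Foxn3, a forkhead repressor gene 562 kb below with 4 protein-coding genes between, was the only one of the list within 1 Mb, and it had 7 peaks, none strong and up to 6.34-fold. The interval held 12 peaks, 3 of them strong. A peak of 35.1-fold (99938381 to 99939098) lay 187 kb below Nrde2.

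**Figure D5:**
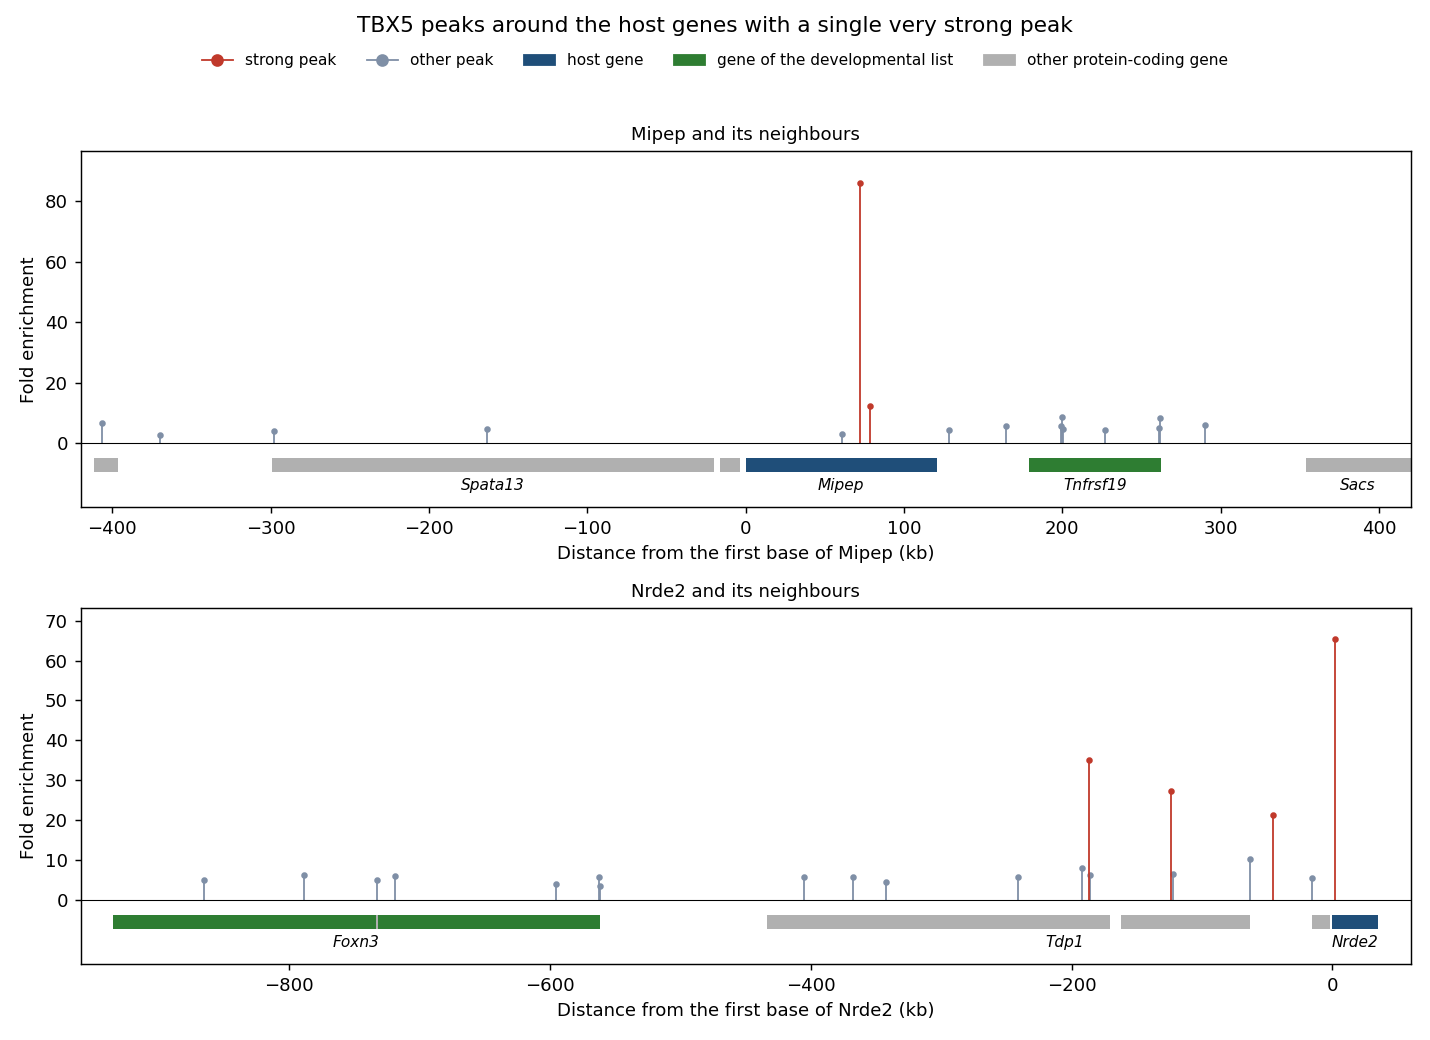
Fold enrichment of TBX5 peaks against distance in kb from the first base of Mipep and of Nrde2, with protein-coding genes as bars (host genes blue, developmental list green). Mipep has 1 peak of 86.2-fold with Tnfrsf19 beside it at up to 8.48-fold, and Nrde2 has 1 of 65.3-fold with further strong peaks below it, among them those of 21.2 and 35.1-fold. The Nrde2 panel stops short of the 3 peaks counted above the gene, among them a strong one of 14.6-fold.

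Many of the peaks lay within 10 kb of another, as did 50.1% of all summits in the list, and no more is read from this, since the genes were chosen for many peaks. Joining summits at most 10 kb apart, 69 of the 80 peaks of Lrmda fell into 20 groups of 2 or more, 42 of the 53 of Rad51b into 14, 18 of the 23 of Tns3 into 7, and 15 of the 23 of Skap1 into 6. For Ercc6l2 18 of 24 peaks formed 5 groups, and for Hsd17b3 all 16 formed 5, the largest with 7 summits over 22.9 kb. For Mipep 5 of 8 peaks formed 2 groups, and for Nrde2 0 of 7 did. The longest stretch without a summit, counted to the limits of the flanks, was 88.6 kb in Lrmda, inside its body, 109 kb in Rad51b and 115 kb in Tns3. In Mipep it was 161 kb and in Hsd17b3 112 kb, a stretch that covers the whole gene. Peaks of the 8 host genes had a median width of 347 bp, against 290 bp elsewhere, and the strong ones of 601 bp, against 483 bp elsewhere. Nothing is read from the widths, since strength helped choose the genes.

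The limit of 100 kb cut through some of these stretches. For Rad51b the outermost peak inside it was of 4.89-fold at 97.0 kb and the first beyond it of 21.1-fold at 101 kb. For Hsd17b3 the pair was of 4.24-fold at 94.9 kb and 10.2-fold at 101 kb. Between 100 and 200 kb there were 48 further peaks at Skap1, 12 each at Rad51b and Ercc6l2, 11 at Hsd17b3, 9 at Tns3, 8 at Nrde2 and 5 each at Lrmda and Mipep.

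Of the 8 host genes, 7 had a gene of the developmental list within 1 Mb, Tns3 being the exception, against 42.1% of all protein-coding genes, and 6 had one within 500 kb, against 26.8%. These counts are partly built in, because Zfp36l1, Zfp503, Kat6b and Tnfrsf19 were entered singly. With family names alone, and without Spryd7, 4 of the 8 had one within 1 Mb (Skap1, Nrde2, Ercc6l2 and Hsd17b3), against 41.9% of all protein-coding genes, and 3 within 500 kb, against 26.6%. Ercc6l2 and Hsd17b3 share theirs, Ptch1, so they are not separate cases, and no enrichment of developmental neighbours is read from these counts. The list held 575 genes, and the neighbours on it were 18 genes, 10 of them Hoxb genes, or 17 without Spryd7. Of the 10 neighbours with a listed start, leaving out Spryd7, 5 had a summit within 1 kb of it (Zfp36l1, Zfp503, Hoxb4, Tnfrsf19 and Ptch1), of which 3 were entered singly. Among the 130 other protein-coding neighbours, 98 had a listed start and 33 of these a summit there (33.7%, exact 95% binomial interval 24.4 to 43.9%). Over all genes with a listed start the share was 23.2%, and over the genes of the developmental list with one it was 29.2% (121 of 415). With Spryd7 counted, 6 of 11 developmental neighbours had a summit there, with a wide interval of 23.4 to 83.3%.

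The host genes were not equally near to their peaks. For 198 of the 227 peaks (87.2%) a host was the protein-coding gene with the nearest body. For Rad51b and Tns3 this held for every peak of the stretch, for Lrmda for 69 of 80, for Skap1 for 17 of 23, for Ercc6l2 for 19 of 24, for Hsd17b3 for 12 of 16, for Mipep for 4 of 8 and for Nrde2 for 1 of 7. Much of this is built in, since each peak had to lie within 100 kb of a host and 139 of the 227 lay inside one. The same share was not counted for other genes, so nothing is read from its height. With lncRNA genes and pseudogenes counted as genes too, the share of 87.2% fell to 66.5%, and 39 of the peaks, 11 of them strong, lay inside such a gene. How many peaks of the whole list lay inside such genes was not counted, so nothing is read from these counts.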

How the data were processed

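The authors deposited 1 peak list in the layout that MACS2 writes, for 2 TBX5 ChIP libraries and 1 input library. Per the submitters' processing notes, the build was mm10 and the tools were Bowtie2, SAMtools and MACS2. Not given in the sources used here are their versions and settings, whether libraries were merged and whether the input served as control. For each peak the authors deposited a fold enrichment over local background, the −log10 of a q-value, a score and a summit offset. The deposited score was not used. A fold depends on library depth, which is unknown, so peaks were ranked only within the list.

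Summits were placed on RefSeq genes of GRCm38.p6 (the assembly of mm10) on 20 chromosomes. Starts came from RefSeq's promoter table, which lists them for 17274 of 21631 protein-coding genes; shares at starts cover the 27173 peaks on chromosomes with listed starts. The developmental list matched family stems followed by short endings, plus a few genes entered singly. Shares have exact 95% binomial intervals. No model was fitted and no test made. Counting was tested on simulated data. Members and lists were chosen with earlier results of these data known. Named were the 8 genes, their developmental neighbours, and some of the genes adjacent to them or next to them in peak count or highest in it; Gm30926, Gm51985, 9430078K24Rik, Gm38960, 1700024I08Rik and 9530050K03Rik, hosts of named peaks, and the genes whose starts held peaks, were named after their values were seen. Alternatives changed the flank, the strength limit, the peak's position and the nearest-gene rule. Python 3.11.15, pandas 2.3.3, numpy 2.4.6 and scipy 1.17.1 were used.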

Additional observations from a re-analysis of the deposited data

How the results depend on the processing

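The 227 peaks of the 8 genes became 139 with gene bodies only and 134 with the 14191 peaks of highest −log10 q, and lay between 188 and 319 with flanks of 50 and 200 kb, with peak midpoints and with each peak given to its nearest gene body only. The 69 strong peaks became 27 with the 1000 highest peaks and 45 with the 2500 highest, and 73 when ranked by fold. The share of peaks with a host as the nearest gene moved to 66.5% from 87.2% once all annotated genes were counted, and was 87.2% by nearest gene end. The developmental neighbours summed over the genes were 19, 17 within 500 kb and 18 within 1 Mb of the strongest summit, and 7, 6 and 7 host genes had any. With family names alone and without Spryd7, chosen after seeing the data, they were 14, and 4 host genes had any. Ranking by peaks per 100 kb in place of count moved 6 of 8 ranks by over 1.5 times. No paired analysis was possible because the list holds no value per library. Leaving out a ChIP library was not run for the same reason. Neither the depth nor the spread between libraries is known, so a peak need not be present in both.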
